A study of Mus musculus with 4 samples.

Results

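The TGF-beta genes described here were the ligand gene Tgfb1, the receptor genes Tgfbr1 and Tgfbr2, and the signalling genes Smad2, Smad3, Smad4, Smad7 and Ski. Peaks of 4 ATAC-seq lists that overlapped by at least 1 bp were merged, and a region was kept when the protein-coding gene interval nearest its midpoint, within 100 kb, was one of the 8. This gave 133 regions of the 97394 in all. The rule used names and positions, and no measured value. At the edge of the rule lay a Tgfbr2 region at 95796 bp with a peak in KO-2 alone, and the first region beyond it, at 108512 bp from Tgfbr2, had peaks in KO-1 and KO-2.

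ATAC-seq marks open chromatin by where a transposase can cut the DNA. The cells were CD4 T cells from mice with the SMARTA receptor transgene (TCRSMARTA), which recognises the GP61 peptide that the melanoma line B16-GP61 carries. Naive TOX WT cells (Ly5.12) and TOX KO cells (Ly5.1) had been given to tumor-bearing hosts treated with cytoxan, a lymphocyte-depleting drug, and the donor cells were sorted at 11 days from the lymph node draining the tumor. The 2 WT libraries, WT-1 and WT-2, came from Ly5.1+ Ly5.2+ cells with high PD1, LAG3 and CD39. The 2 KO libraries, KO-1 and KO-2, came from Ly5.1+ Ly5.2- cells with low PD1, LAG3 and CD39. Every group shared the transgene, the tumor, the drug and the tissue, while TOX, the gate and the congenic marker differed together, so their parts cannot be told apart. No source used here gives the TOX allele, the ages of the mice or whether the libraries came from separate animals, so p-values below measure only the spread between these libraries, which may be technical.

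TGF-beta binds the type II receptor, which activates the type I receptor. That receptor phosphorylates SMAD2 and SMAD3, which enter the nucleus with SMAD4. SMAD7 inhibits the receptors and SKI represses genes together with SMADs. In T cells the pathway is known for restraining effector differentiation and for its part in regulatory, Th17 and tissue-resident cells.

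Each value below is the authors' own fold enrichment of a peak (column 7 of the list), given as its percentile: the percent of peaks in the same library's list with an equal or lower fold. A region with several peaks of a library took the highest. Lists of different length rank peaks differently, so a percentile describes a peak within its library and a gap between libraries shows no change by itself. The lists held 43078 and 61773 peaks in KO, and 56852 and 61489 in WT; reads per library are unknown. Between 1603 and 1900 peak numbers were missing per list, so an absent peak can be one that had been removed. All 12 T cell markers, among them Cd3e and Cd4, had a peak in each library. Markers of B cells also had peaks, mostly in WT: 97 and 106 regions in WT-1 and WT-2 against 11 and 19 in KO-1 and KO-2.

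At 5 of the 8 genes (Tgfbr1, Tgfbr2, Smad2, Smad4 and Ski) the region with the highest lowest percentile over the libraries lay at a gene end. The upstream sequences of the 5 genes with an entry are shown because the start-site peaks of each library are placed against them below. They are the 250 bases before the annotated start, 5′ to 3′ on the gene's strand, from RefSeq on GRCm38.p6. Capitals mark matches on either strand to the GC box GGGCGG, the CCAAT box and the SMAD box CAGAC.
Tgfbr1, chr4:47352972-47353221, plus strand: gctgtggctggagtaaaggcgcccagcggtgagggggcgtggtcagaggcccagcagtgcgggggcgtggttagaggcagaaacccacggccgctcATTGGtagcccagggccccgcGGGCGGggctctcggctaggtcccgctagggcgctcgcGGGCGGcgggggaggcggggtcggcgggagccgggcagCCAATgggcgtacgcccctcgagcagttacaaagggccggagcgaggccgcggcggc
Tgfb1, chr7:25686752-25687001, plus strand: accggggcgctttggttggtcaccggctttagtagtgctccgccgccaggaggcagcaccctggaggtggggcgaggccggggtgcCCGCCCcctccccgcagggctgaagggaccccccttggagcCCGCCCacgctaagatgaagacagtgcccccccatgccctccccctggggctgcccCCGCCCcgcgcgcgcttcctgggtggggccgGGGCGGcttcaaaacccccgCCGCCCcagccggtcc
Tgfbr2, chr9:116175364-116175613, minus strand: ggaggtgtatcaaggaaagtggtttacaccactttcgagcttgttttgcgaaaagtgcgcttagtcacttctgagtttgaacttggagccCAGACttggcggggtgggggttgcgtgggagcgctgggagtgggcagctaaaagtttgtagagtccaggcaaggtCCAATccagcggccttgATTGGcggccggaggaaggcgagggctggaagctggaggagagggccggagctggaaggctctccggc
Smad3, chr9:63757995-63758244, minus strand: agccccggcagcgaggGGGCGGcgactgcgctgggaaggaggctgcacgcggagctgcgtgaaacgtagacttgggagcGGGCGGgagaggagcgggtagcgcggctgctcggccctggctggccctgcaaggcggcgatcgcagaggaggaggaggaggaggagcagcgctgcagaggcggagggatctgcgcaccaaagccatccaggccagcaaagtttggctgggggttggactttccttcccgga
Ski, chr4:155222536-155222785, minus strand: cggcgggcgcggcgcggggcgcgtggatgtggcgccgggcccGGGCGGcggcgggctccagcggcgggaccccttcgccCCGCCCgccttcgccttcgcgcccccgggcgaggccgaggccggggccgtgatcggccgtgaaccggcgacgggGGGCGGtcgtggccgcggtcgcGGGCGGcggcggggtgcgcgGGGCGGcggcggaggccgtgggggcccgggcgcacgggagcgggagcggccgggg

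The summit of the Tgfbr1 peak was placed almost at the same base in every library. Counted from the start site as 0, it lay at -93 in KO-1, KO-2 and WT-2 and at -91 in WT-1, inside the GC box that spans -95 to -90 in the sequence above. At Tgfb1 the summits were spread over the window, at -28 in KO-1 and -25 in KO-2, against -3 in WT-1 and -115 in WT-2. At Tgfbr2 the strongest summits lay past the start site, at 82 in KO-1 and 87 in KO-2, against 82 in WT-1 and 113 in WT-2. At Smad3 a peak of each library covered the whole window, and the summits lay just upstream of it, at -269 and -270 in KO and at -267 in both WT libraries. Ski differed from these: its strong summits lay at -820 in KO-1 and -815 in the other 3 libraries, upstream of the printed window. The window itself was overlapped at its downstream end by a weak peak in KO-1, at the 2.28 percentile, and by none in the other 3 libraries, whose nearest peaks were weak and downstream or strong and upstream.

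Of the 5 upstream sequences, 4 held a GC box, against 32.7% of the 32851 windows of the same length in the table. A CCAAT box stood in Tgfbr1 and Tgfbr2 (33.8% of all windows). The SMAD box was found only in Tgfbr2, at -160 to -156, and is common (42.2% of all windows). The SMAD palindrome GTCTAGAC, the TATA box TATAAA, the AP-1 motif TGANTCA, the RUNX motif TGTGGT and the ETS motif CCGGAAG had no match on either strand in the 5. They stood in 0.167%, 12.4%, 6.75%, 14.0% and 6.91% of all windows. The GC content was 87.6% at Ski, 75.2% at Tgfb1, 74.8% at Tgfbr1, 69.2% at Smad3 and 58.4% at Tgfbr2, where the median window had 52.4%. AP-1 and the SMAD palindrome read the same on both strands, and a match is a description of letters only.

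The 8 genes together had regions with a peak in 88 cases in WT-1 and 98 in WT-2, and in 73 cases in KO-1 and 80 in KO-2. The sum was higher in both WT libraries than in either KO library. As percents of the 133 regions these were 66.2 and 73.7 in WT and 54.9 and 60.2 in KO. Over all regions with a gene they were 59.8 and 65.2 in WT and 44.2 and 61.3 in KO, where KO-2 lay between the WT libraries. The order depended on the peaks used: among the 20000 peaks of each list with the highest −log10 q (the strongest, below) the WT mean lay below the KO mean at Tgfbr1, Tgfbr2, Smad4, Smad7 and Ski. Peaks in every library marked 49 of the 133 regions (36.8%), where 27.6% of all merged regions and 31.4% of those with a gene did so. The order turned to 39.1% against 41.7% of all regions with a −log10 q of at least 5 and to 48.9% against 53.3% with the 20000 strongest, but not with a −log10 q of at least 10 (44.8% against 43.4%). Regions that both WT libraries had as a peak and no KO library had, called WT-only below, numbered 12 (9.02%). That share was 8.80% over all merged regions and 9.65% over those with a gene. The reverse, KO-only, numbered 2 (1.50%, against 1.78% and 1.88%). With all peaks both shares were near those of all regions, so neither is a result about these genes. Another 44 regions had a peak in a single library. Among those 20000 strongest peaks the order of the classes turned as well, with 3 regions WT-only (6.38%, against 8.96% of all regions so merged) and 5 KO-only (10.6%, against 6.77%). Over all regions it did not turn. With any 1 library left out the rule is looser, and it gave 17 to 31 of the first kind and 5 to 13 of the second. The share furthest from that of all regions was KO-only without KO-1, at 10.2% against 22.3%. With a −log10 q of at least 5 there were 15 WT-only regions (17.2%, against 13.5%) and 3 KO-only (3.45%, against 2.19%). At least 1 WT-only region was found at 6 of the 8 genes, against 26.6% of the 16497 genes with a region, and at least 1 KO-only region at 2 of the 8, against 7.49%. A gene with many regions has more chances to hold one.

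Tgfbr2, the type II receptor, had the most regions, and Tgfbr1 and Tgfb1 the fewest. Tgfbr2 had 44, Smad3 25, Ski 19, Smad4 and Smad7 13 each, Smad2 8, Tgfb1 6 and Tgfbr1 5. Smad3 was the one gene of the 8 whose libraries did not overlap by genotype: it had 15 regions with a peak in WT-1 and 21 in WT-2, and 12 in KO-1 and 13 in KO-2. Such a split with WT above was seen at 17.7% of the genes with a region, and the reverse, seen at none of the 8, at 4.27%. The means were 18 ± 4.24 in WT and 12.5 ± 0.707 in KO (SD, n = 2 libraries each). Their difference of 5.5 was 2.5 without WT-2 and 8.5 without WT-1, and it was 1.5 with peaks of a −log10 q of at least 10 and 0 with the 20000 strongest peaks. By a two-sided exact permutation test over the libraries p was 0.333, the smallest that 2 against 2 can give, and 1 after Benjamini-Hochberg adjustment over all genes. No gene of the 16497 passed, nor had any an unadjusted p under 0.05, and the design does not allow it.

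**Figure D1:**
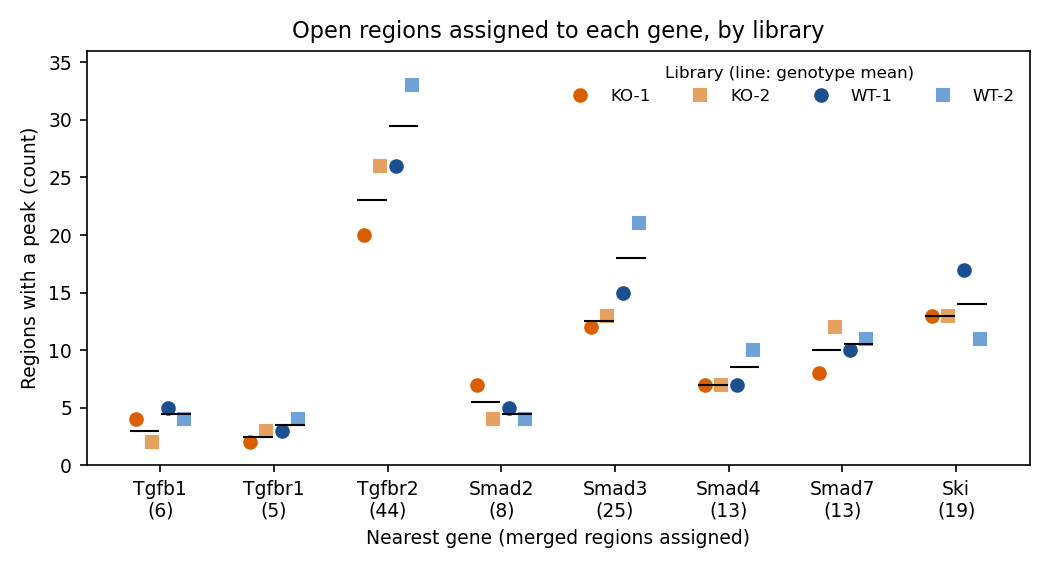
Regions with a peak (count, vertical axis) at each of the 8 genes, with the number of merged regions in brackets; each point is 1 library and each line the mean of a genotype. At Smad3 the WT points (15 and 21) lie above the KO points (12 and 13), while at the other 7 genes the genotypes meet or overlap.

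The ligand gene Tgfb1 (chromosome 7, 25687002 to 25705077) had its start site marked in every library at a middling strength. That region, 25686707 to 25687749, stood at the 53.0 percentile in KO-1 and 64.2 in KO-2, against 59.1 in WT-1 and 59.0 in WT-2, and the KO values enclosed the WT values. A region inside the gene, 25688753 to 25689932, was also present throughout, at 65.4, 60.8, 63.8 and 72.7 in the same order of libraries. The WT-only region lay past the far end of the gene, at 25706741 to 25707155, and was weak, at 18.9 in WT-1 and 3.9 in WT-2. Beside it, 25707377 to 25708022 had a peak in KO-1 (4.5), WT-1 (41.1) and WT-2 (62.4) and none in KO-2.

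Tgfbr1, the type I receptor gene (chromosome 4, 47353222 to 47414926), had the strongest single region of the set at its start. It spanned 47352584 to 47353858 and stood at 98.2 in KO-1 and 97.2 in KO-2, against 98.8 in WT-1 and 97.6 in WT-2, with a fold enrichment of 12.9, 17.2, 17.2 and 16.2. All 4 libraries lay within the top 3% of their lists, and the genotypes interleaved. The other region shared by the libraries, 23.0 kb from the gene at 47437551 to 47438393, had a fold enrichment of 3.11 and 8.85 in KO and of 5.66 and 6.09 in WT, where KO-1 was low. The WT-only region of Tgfbr1, at 47419662 to 47419997, was weak in both libraries (9.9 in WT-1 and 19.7 in WT-2).

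At Tgfbr2 (chromosome 9, 116087695 to 116175363, minus strand) regions of opposite kinds alternated upstream of the gene. Its start, 116174354 to 116176209, was strong in every library, at 87.8 in KO-1 and 82.1 in KO-2, against 87.2 in WT-1 and 82.2 in WT-2. Of all WT-only regions of the 8 genes, the strongest by its lower percentile lay 41.7 kb upstream at 116216711 to 116217328. It stood at 69.7 in WT-1 and 72.0 in WT-2, with a fold enrichment of 6.06 and 6.17 and a −log10 q of 37.7 and 41.7, and no KO library had a peak there. This region was still WT-only among peaks with a −log10 q of at least 10 and among the 20000 strongest peaks of each list.

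From there in to 22.4 kb upstream, 2 regions leaned to KO, 1 had a peak in KO-2 alone and another 2 were WT-only. At 36.9 kb upstream, 116212095 to 116212517 had a peak in every library, at 68.2 in KO-1 and 39.6 in KO-2 but 3.8 in WT-1 and 1.7 in WT-2. At 37.4 kb, 116212599 to 116212951 was KO-only and weak, at 8.8 in KO-1 and 20.8 in KO-2. A WT-only region followed 33.1 kb upstream, 116208253 to 116208661, at 44.4 in WT-1 and 53.3 in WT-2.

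Beyond 41.7 kb, regions stronger in WT and in KO lay next to each other. At 48.2 kb upstream, 116223216 to 116223879 stood at 81.3 in KO-1 and 78.3 in KO-2, at 53.9 in WT-2, and had no peak in WT-1. At 44.1 kb, 116218896 to 116219963 stood at 62.6 in WT-1, 59.1 in WT-2 and 22.4 in KO-2, with no peak in KO-1. The 2 neighbours thus stood in opposite order, and each lacked a peak in 1 library of the weaker genotype. The other 3 WT-only regions of Tgfbr2 were weaker. Inside the gene, 116139609 to 116139905 stood at 24.9 in WT-1 and 39.2 in WT-2, and 116136918 to 116137129 at 2.1 and 26.2. The region 22.4 kb upstream, 116197574 to 116198031, stood at 9.9 and 25.9.

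**Figure D2:**
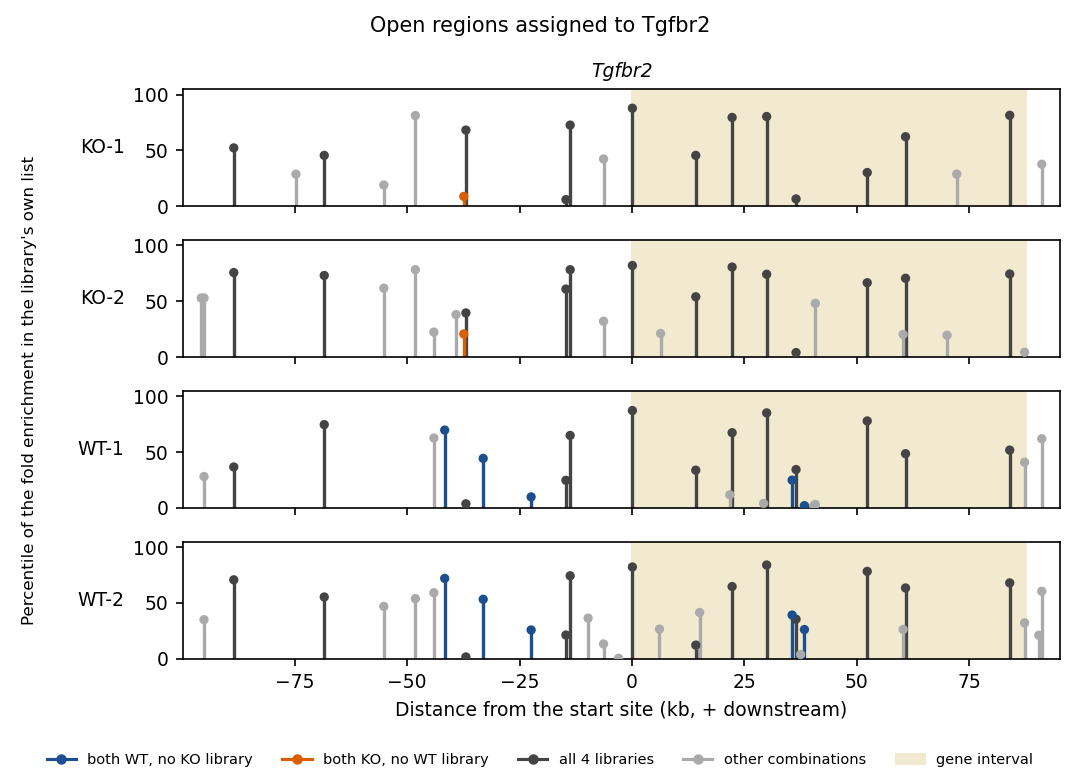
Regions assigned to Tgfbr2 in each library, by distance of the midpoint from the start site (kb, upstream negative) and percentile of the fold enrichment in the library's own list; colour gives the libraries with a peak and shading the gene. The blue WT-only lines upstream of the gene stand in both WT rows and in neither KO row, and the strong start-site line (82.1 to 87.8) stands in all 4.

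The receptor-regulated SMAD genes Smad2 and Smad3 had 8 and 25 regions, too few to compare their genotype-specific ones. Smad2 (chromosome 18, 76241090 to 76311748) had no genotype-specific region, and the region at its lower end, 76240999 to 76242451, stood at 90.9 in KO-1 and 90.0 in KO-2, against 89.2 in WT-1 and 91.2 in WT-2, with the genotypes overlapping. A distal region 67.3 kb from the gene, 76378739 to 76379441, was nearly as strong, at 81.2, 82.3, 81.0 and 89.7. Smad2 was also the one gene with fewer regions in WT on average, 4.5 ± 0.707 against 5.5 ± 2.12 in KO (SD, n = 2 each). That difference did not reach the SD within KO, where KO-1 had 7 and KO-2 had 4. WT minus KO, -1 here, turned to 0.5 without KO-1 and to 1 with a −log10 q of at least 5.

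Smad3 (chromosome 9, 63646766 to 63757994, minus strand) carried 3 WT-only regions of 25 (12%, against 9.65% of all regions with a gene), grouped inside the gene. They lay 25.1, 26.4 and 31.3 kb past the start site. The middle one, 63731414 to 63731800, was the strongest, at 55.7 in WT-1 and 75.5 in WT-2 with a −log10 q of 12.8 and 30.8. It kept that class among peaks with a −log10 q of at least 10, but not among the 20000 strongest peaks of each library. Its neighbours, 63732716 to 63733012 and 63726624 to 63726848, stood at 24.9 and 42.8, and at 11.0 and 12.3, in WT-1 and WT-2.

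The strongest Smad3 region lay deeper in the gene, 51.4 kb past the start, and not at the start site. At 63706192 to 63706949 the percentiles were 92.1 in KO-1 and 96.9 in KO-2, against 90.8 in WT-1 and 95.3 in WT-2. Its start site, 63757660 to 63758760, stood at 58.9 in KO-1 and 65.8 in KO-2, against 72.4 in WT-1 and 81.7 in WT-2, both WT libraries above both KO libraries. The widest region of the 8 genes, 1880 bp at 63737369 to 63739248, lay between these and was present in every library.

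Smad4, whose protein partners both of these SMADs, was steady at its end (chromosome 18, gene 73634790 to 73703791). The region 73702955 to 73704359 stood at 91.7 in KO-1 and 93.6 in KO-2, against 93.0 in WT-1 and 92.3 in WT-2. Its WT-only region, inside the gene at 73648319 to 73648713, was weak, at 19.0 in WT-1 and 41.5 in WT-2. One shared region, 73693567 to 73694510, ranged from 19.1 in KO-1 to 81.2 in KO-2, with WT-1 at 57.1 and WT-2 at 46.9 between them, so the KO libraries differed more from each other than from WT.

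The inhibitors Smad7 and Ski had 13 and 19 regions, too few to compare their genotype-specific ones. Smad7 (chromosome 18, 75367365 to 75395935) had none, and 8 of its 13 regions (61.5%) had a peak in every library, the largest share of the 8 genes. A distal region 24.3 kb from it, 75342525 to 75343531, stood at 82.0 in KO-1 and 86.0 in KO-2, against 83.5 in WT-1 and 85.3 in WT-2, above the region at its lower end (67.5, 65.8, 76.0 and 73.3). A region inside the gene, 75377201 to 75378759, stood at 89.7, 84.6, 80.9 and 85.3.

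Ski (chromosome 4, 155154075 to 155222535, minus strand) had 1 region of each kind among 19 (5.26% each), both inside the gene. Over all regions with a gene, 9.65% were WT-only and 1.88% KO-only. The KO-only region, 155209538 to 155209807, lay 12.9 kb past the start and stood at 46.4 in KO-1 and 57.9 in KO-2, with a fold enrichment of 3.50 and 4.94. The WT-only region, 155169012 to 155169537, lay 53.3 kb past the start and stood at 40.5 in WT-1 and 49.2 in WT-2. Another pair of regions leaned to KO without meeting the rule, since WT-1 had a weaker peak there: 155170606 to 155171279 (42.9 in KO-1, 74.8 in KO-2 and 29.7 in WT-1) and 155197746 to 155198152 (56.1, 53.2 and 2.1). The strong region 155222933 to 155223778, just upstream of the start, stood at 88.1 in KO-1 and 88.7 in KO-2, against 93.2 in WT-1 and 90.8 in WT-2.

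**Figure D3:**
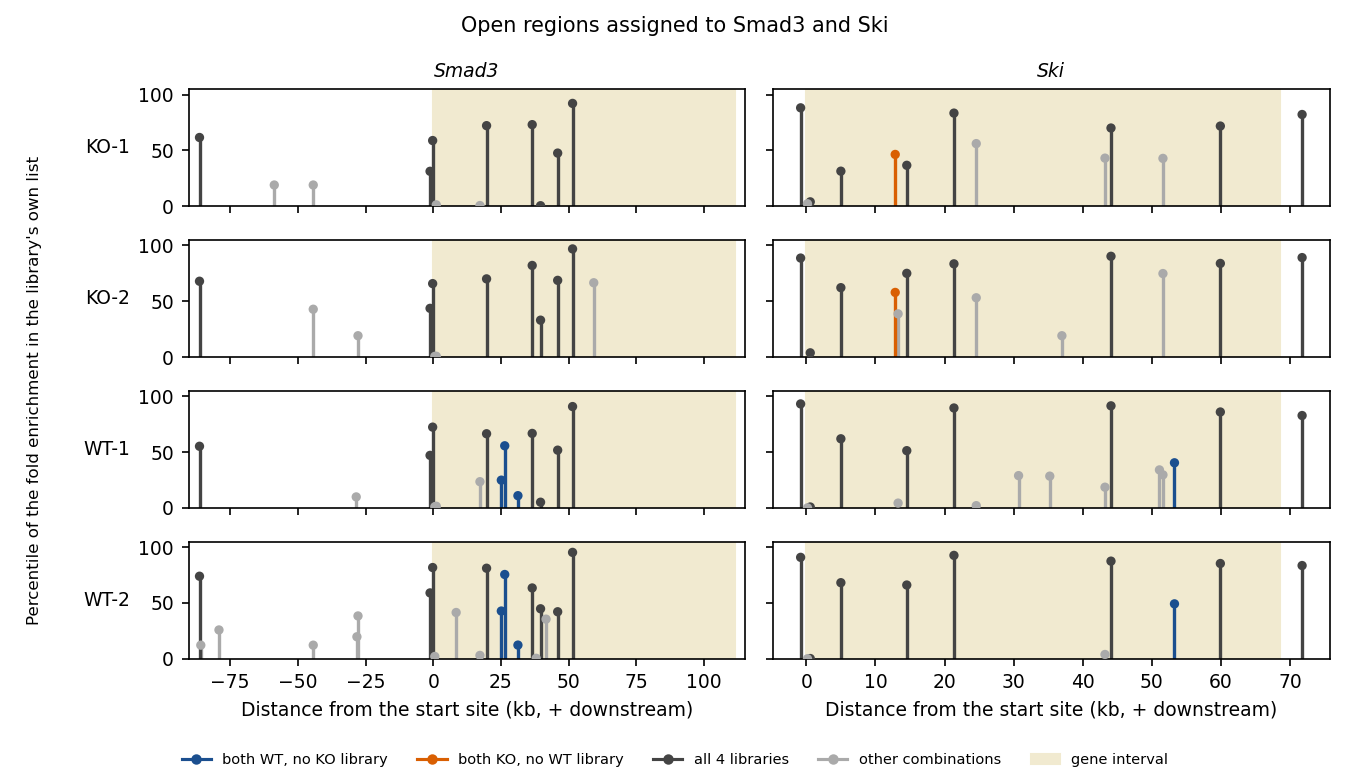
Regions assigned to Smad3 (left) and Ski (right) in each library, by distance of the midpoint from the start site (kb) and percentile in the library's own list, with colours as in the map of Tgfbr2. The 3 WT-only lines of Smad3 stand together 25.1 to 31.3 kb past the start, and the KO-only line of Ski stands 12.9 kb past its start in KO-1 and KO-2 alone.

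To compare the 49 regions with a peak in every library on an equal footing, each was also ranked among the 26867 such regions, the same number in each library. Both WT libraries were above both KO libraries at 10 of the 49 (20.4%, against 23.9% of all 26867), and both KO above both WT at 14 (28.6%, against 22.0%). Tgfbr2 held 6 of those 14, and 2 of the 10, among its 13 shared regions. On this scale the Tgfbr2 region at 116122550 to 116123560, inside the gene, stood at 56.3 in WT-1 and 54.1 in WT-2 and at 10.4 in KO-1 and 29.3 in KO-2. The one at 116090968 to 116091760, near the far end of the gene, stood at 21.3 and 36.7 in WT and at 70.3 and 43.1 in KO. At the Smad3 start site the values were 47.3 and 60.5 in WT and 36.6 and 28.3 in KO.

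As a set, the shared regions of the 8 genes ranked somewhat low and did not separate the genotypes. Their median on this scale was 45.6 in KO-1 and 42.6 in KO-2, against 37.3 in WT-1 and 42.7 in WT-2, where the median of all such regions is 50.0 by construction. WT minus KO came to -4.08, and WT-2 stood above KO-2.

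**Figure D4:**
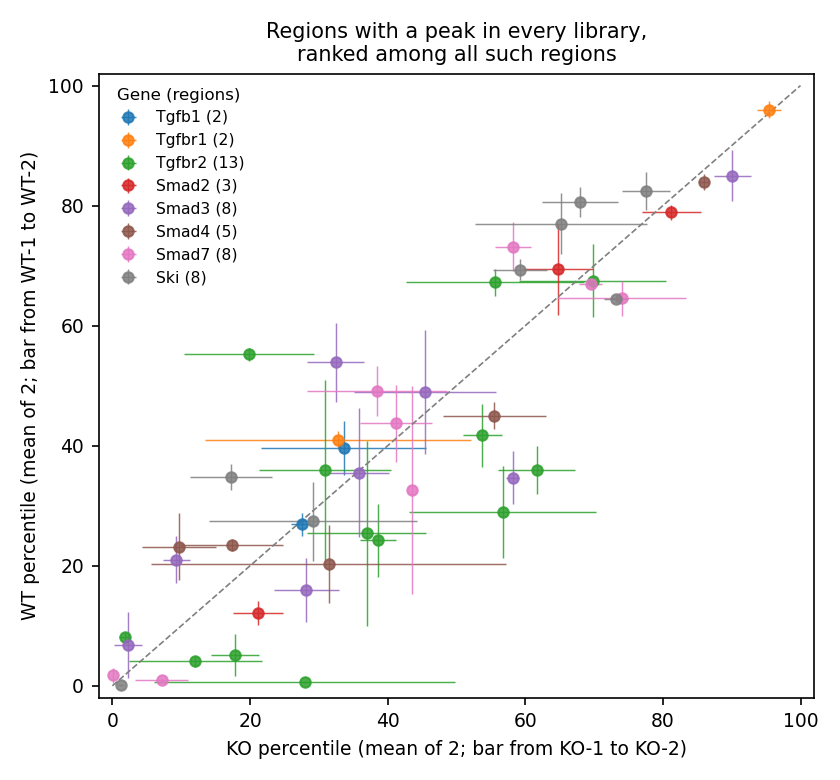
The 49 regions with a peak in every library, placed by KO and WT percentile among all 26867 such regions; points are means of 2 libraries, bars reach from one library to the other and the dashed line marks equal ranks. Points of Tgfbr2 lie on both sides of the line, and the Tgfbr1 start site stands at the upper right (95.4 in KO and 96.0 in WT).

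The regions of the 8 genes were described by width and place, with no test. Against the 82780 regions with a gene within 100 kb, their median width was 382 bp against 320 bp, 59.4% lay inside the gene against 63.1%, and 11.3% lay within 1 kb of a gene end against 18.4%. None of the 14 genotype-specific regions lay within 1 kb of a gene end, where 8.46% of all WT-only and 7.14% of all KO-only regions did, a share too small to read anything from 14. Of the 49 shared ones 10 did (20.4%), against 38.1% of all shared regions. The WT-only regions were 212 to 618 bp wide, and the shared ones had a median of 793 bp. Width and fold move together with whether a peak is called, and these differences were not tested.

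In the wider pathway, 70 further genes were counted by role, from a list drawn up with earlier results of these data known. Of these, 68 had a region, 26 held WT-only regions in excess, 6 held KO-only regions in excess, and 37, with the 2 that lacked a region (Eng and Foxh1), had neither kind. Over all genes with a region, 24.9% held WT-only regions in excess and 4.61% KO-only regions. The genes were not matched by their number of regions, and a gene with many has more chances of either excess. The 563 regions of the pathway genes held 61 WT-only and 14 KO-only ones (10.8% and 2.49%). These shares were 8.80% and 1.78% over all regions, and 9.65% and 1.88% over those with a gene. Among ligands and factors of their release, Tgfb2, Ltbp1 and Lrrc32 had 2 WT-only regions each, and no gene had a KO-only one. Ltbp1 encodes a protein that holds latent TGF-beta in the matrix, and had 4 and 3 regions with a peak in WT and none in either KO library. Counts with both WT libraries above both KO libraries were seen at 17.7% of the 16497 genes with a region. Among receptors, Tgfbr3, a co-receptor, had 3 WT-only and 1 KO-only of 22 regions, Acvr1b had 2 and 0 of 8, and Bmpr2 had 0 and 1 of 6. Acvr1, Acvrl1 and Bambi had 1 and 0 each.

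Among SMADs and their co-factors, the repressor gene Zeb2 had 8 WT-only and no KO-only of 27 regions, the acetyltransferase gene Ep300 had 4 and 0 of 6, and Smad1, of the BMP branch, had 3 and 0 of 11. Zeb2 had 21 regions with a peak in each WT library, 6 in KO-1 and 8 in KO-2. Both WT libraries stood above both KO libraries in this count at 17.7% of the 16497 genes with a region. The turnover group had 13 WT-only and 3 KO-only of 100 regions (13% and 3%). Over all regions with a gene these shares were 9.65% and 1.88%. In this group the deubiquitinase gene Usp15 had 6 and 0 of 11 regions, Map3k7 2 and 0 of 9, and Tab2 2 and 0 of 14. Ppm1a, a phosphatase, had 0 and 2 of 8. The T cell genes known to respond to TGF-beta had 10 WT-only and 5 KO-only of 161 regions, with Runx3 and Ifng at 3 and 0 each and Gata3 and Il2 at 0 and 1 each.

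B cell and myeloid markers moved with the WT libraries beside all these counts. The 12 B cell markers had 63 WT-only and 1 KO-only of 128 regions (49.2% and 0.781%). In KO-1, 7 of the 12 had no peak and in KO-2, 3 had none, while all 12 had one in each WT library. Ms4a1 and Fcer2a had no peak in either KO library. The 12 myeloid and dendritic markers had 29 and 2 of 94 regions (30.9% and 2.13%). Their regions with a peak numbered 66 and 73 in WT against 29 and 44 in KO. Csf1r, Adgre1, Itgax and Cd68 had none in either KO library, and Lyz2 none in any. At other markers of this list the genotypes met or overlapped. Itgam had 4 and 7 such regions in WT against 5 and 6 in KO, and Spi1 4 and 5 against 3 and 4. Fcgr1 had 1 and 2 in each genotype. The 12 T cell markers had 9 WT-only and 11 KO-only of 137 (6.57% and 8.03%). Over all regions with a gene these shares were 9.65% and 1.88%, so the T cell markers stood high in KO-only regions. Their regions with a peak numbered 82 and 85 in WT against 77 and 104 in KO. The 7 melanocyte markers had neither kind in 21. Several of the genes described, such as Tgfbr2, Smad3 and Zeb2, are also used by B cells or myeloid cells, and the part of such cells in the WT-only regions was not tested. A smaller share of cells with a region open and less opening per cell cannot be told apart in these bulk libraries.

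**Figure D5:**
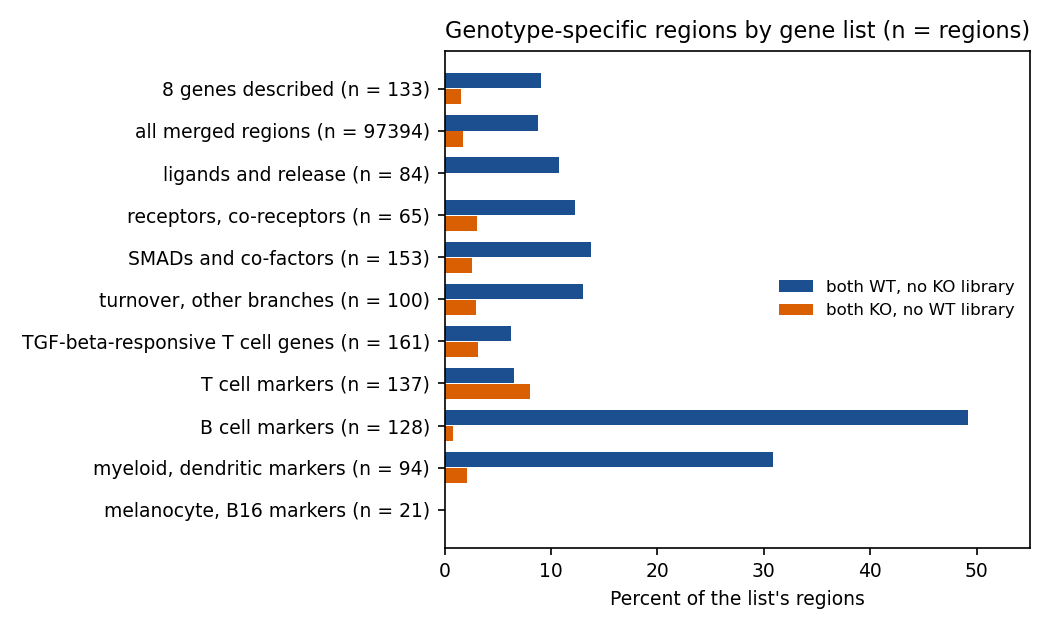
Percent of each list's regions that were WT-only (blue) or KO-only (orange), with the number of regions in brackets and bars from 0. The 8 genes (9.02% and 1.50%) stand close to all merged regions (8.80% and 1.78%). In the WT-only share the B cell (49.2%) and myeloid (30.9%) marker lists stand furthest above both. In the KO-only share the T cell marker list stands highest (8.03%).

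The genes most like the set were sought by the percents of their regions with a peak in each library, KO first, which were 54.9, 60.2, 66.2 and 73.7 for the 8 genes pooled. Of 555 other genes with at least 20 regions, the nearest were Chd2, Vgll4, Gramd1b, Ets1 and Cd69, at distances of 4.61 to 6.08 percentage points over the 4 libraries. Chd2 had 58.1, 61.3, 67.7 and 71.0. The likeness rests on 4 numbers per gene and describes only how many regions each list held.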

How the data were processed

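Peak lists of 2 WT and 2 KO ATAC-seq libraries were used, 1 list per library. The tools named, per the submitters' processing notes, include MACS2, BWA, deepTools, Picard and SAMtools, with the build GRCm38 (mm10). For versions, settings, read shifting and filters: not given in the sources used here. The deposited lists had 10 columns and no header, in narrow-peak layout. Per peak, the authors gave a fold enrichment (a ratio to the caller's background in that library), a −log10 p and −log10 q (q at least 2 on that scale), and a score of about 10 times the −log10 p, which was not used. Depth is unknown, so no counting interval was set.

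Peaks overlapping by 1 bp were merged, and each region went to the nearest protein-coding RefSeq gene interval (GRCm38.p6) within 100 kb of its midpoint. Positions are 1-based. The table of upstream sequences had no entry for Smad2, Smad4 and Smad7. Exons, introns and UTRs were not used here. Counts over the genes had no test. The number of regions with a peak per gene was tested by a two-sided exact permutation over libraries. Merging, assignment and this test were tested on simulated data. Python 3.11.15 with pandas 2.3.3 was used.

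The genes and lists were chosen with earlier results of these data known. The text names all 8 genes, their WT-only and KO-only regions, the strongest regions at gene ends and in every library, the widest region, up to 4 pathway genes a role by the difference of WT-only and KO-only regions, and the 5 genes most like the set. Other named regions, Zeb2's counts by library and the Tgfbr2 neighbours were chosen after their values were seen. Alternatives were stricter peaks, lists of equal length, other overlap rules, narrower gene assignment, other ranks, each library left out and a replicate block. Some genes of the lists are counted but not reported here by name.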

Additional observations from a re-analysis of the deposited data

How the results depend on the processing

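The main counts were 12 WT-only, 2 KO-only and 49 regions with a peak in every library. The 3 counts were 5, 1 and 26 with a −log10 q of at least 10, 3, 5 and 23 when only the 20000 strongest peaks per list entered, and 7, 1 and 32 with midpoints inside the gene. WT-only and KO-only regions numbered 6 and 1 when presence needed a −log10 q of at least 5 and absence no peak at all. KO-only regions numbered 4 with peaks joined by summits within 150 bp and 1 within 10 kb of the gene. Leaving out a library loosens both rules: it gave 17 to 31 WT-only and 5 to 13 KO-only regions. The pairs were 17 and 13 without KO-1, 20 and 9 without KO-2, 31 and 5 without WT-1, and 21 and 6 without WT-2. Fewer peaks, regions or libraries enter these counts by construction, except with summits. The cause of the changes was not tested, among them the rise of KO-only regions from 2 to 5 with the 20000 strongest peaks.

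The difference in regions with a peak per gene, WT minus KO, changed sign in some settings. For Smad2 (main -1) it was 1 with a −log10 q of at least 5, by either rule, and ranged from -2.5 to 0.5 with a library left out. For Ski (main 1) it was -2.5 with a −log10 q of at least 5, by either rule, -2 at 10, and -1.5 with the 20000 strongest peaks, and ranged from -2 to 4 with a library left out. With the 20000 strongest peaks Tgfbr1, Tgfbr2, Smad4 and Smad7 gave -0.5, -1.5, -0.5 and -1. Smad7 (main 0.5) ranged from -1.5 to 3.5 with a library left out. The cause was not tested. At Tgfb1 and Smad3 no setting run put WT below KO, but the difference was 0 for Tgfb1 (main 1.5) with midpoints inside the gene and 0 for Smad3 (main 5.5) with the 20000 strongest peaks. The WT minus KO difference of the median percentile, -1.12 in the lists' own ranks, ranged from -5.11 to 4.23 with a library left out, so it has no settled sign.

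With a replicate block, which pairs libraries by replicate number, the exact permutation p at Smad3 was 0.5, the smallest that 2 pairs can give, against 0.333 without it. Deviations of same-numbered libraries from their genotype means correlated at 0.188 over genes. The replicate 1 list was the shorter in both genotypes (43078 against 61773 peaks in KO, 56852 against 61489 in WT). The part of list length in this correlation was not tested, so the value does not show pairing. Nothing in the labels says that a number marks a shared animal or day. The depth of the libraries is unknown, so a missing peak is not a closed region.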
